A study of Mus musculus with 15 samples.

Results

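The Toll-like receptor and NF-κB genes described here are 10 named genes, Tlr2, Tlr4, Tlr7, Cd14, Myd88, Rela, Nfkb1, Nfkbia, Il1b and Tnf, taken by symbol from the 29659 genes of each library. They were followed across 15 bulk RNA-seq libraries of thalamus from mice aged 4.5 months. The study asked how deletion of Lilrb4a, a receptor gene of myeloid cells, changes the brain of 5xFAD mice that carry human APOE4, and compared 5ELKO with 5EL. The study describes all 4 groups as of the human APOE4 knock-in background, homozygous (APOE4+/+) in the 3 whose alleles the methods list. The 5EL group (n = 5) carried the 5xFAD transgenes with both Lilrb4a alleles intact (Lilrb4a+/+), and the 5ELKO group (n = 4) carried them with Lilrb4a deleted (Lilrb4a-/-). The ELKO group (n = 3) lacked Lilrb4a and had no 5xFAD transgenes, and the EL group (n = 3) is the APOE4 knock-in counterpart that kept Lilrb4a. The 5xFAD transgenes are driven by a neuronal promoter, so the amyloid of these mice comes from neurons, and the Lilrb4a deletion was present in all cells. Each library is labelled as a separate sample, but no label ties it to a litter, so the p-values measure the spread between these samples.

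Toll-like receptors are membrane proteins of innate immune cells that bind microbial products and some altered host molecules. In the brain they are found mainly on microglia. TLR2 acts at the cell surface on lipoproteins, TLR4 binds lipopolysaccharide with the help of the co-receptor CD14, and TLR7 binds single-stranded RNA in endosomes. All 3 receptors use the adaptor MYD88, which leads to activation of the kinase that marks IκBα, the product of Nfkbia, for destruction. IκBα holds NF-κB in the cytoplasm, and once it is gone the RELA (p65) and NFKB1 (p50) subunits enter the nucleus and switch on Il1b, Tnf and Nfkbia itself, which closes a feedback loop. Much of this control acts on protein, which these libraries did not measure.

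The values are the log2 expression values that were deposited, in which genes with few reads were pulled towards a low value of their own. Lilrb4a itself was lower in every one of the 7 ELKO and 5ELKO libraries (at most 2.331) than in any of the 8 EL and 5EL libraries (2.345 to 2.662), although it lay under the level filter of 3.32 used below in all 15. The 10 genes of the thalamus list had means of 12.4 to 12.8. No 2 of the 105 pairs of libraries were identical. Some libraries stood apart from the rest. Choroid plexus genes averaged 7.96 in 5EL replicate 1 and 8.31 in ELKO replicate 2 against 5.74 to 6.26 in the other 13, mouse Apoe stood at 10.9 in ELKO replicate 1 against 5.92 to 6.37 in the other 14, and hepatocyte genes were higher in 5ELKO (5.60 ± 0.17 SD) than in 5EL (5.27 ± 0.19). The part of these differences in the results below was not tested beyond leaving libraries out. The methods list ELKO as homozygous for human APOE4, and whether that holds for ELKO replicate 1, with its high mouse Apoe, was not tested.

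The upstream sequence of 2 members is shown because it carries the letters that NF-κB binds. The 250 bases before RefSeq start sites on GRCm38.p6 were searched on both strands for the kappa-B consensus, and results are given for 6 of the 10 members. No window is given here for Cd14, Tlr4, Tlr7 or Nfkb1, so nothing is said of theirs. Tlr2 held 2 overlapping matches, the first beginning at base -173 counted from the start, and Nfkbia held 1, beginning at base -29. Myd88, Rela, Il1b and Tnf held no match to this consensus in the same window, and 3.90% of the 32851 windows searched held at least 1. The matches are in capitals. Both genes lie on the minus strand, and for Tlr2 only the 91 bases outside the annotated gene are given.
Tlr2, chr3:83841768-83841858, 5′ to 3′: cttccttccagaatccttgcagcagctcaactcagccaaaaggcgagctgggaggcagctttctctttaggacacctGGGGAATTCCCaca
Nfkbia, chr12:55492648-55492897, 5′ to 3′: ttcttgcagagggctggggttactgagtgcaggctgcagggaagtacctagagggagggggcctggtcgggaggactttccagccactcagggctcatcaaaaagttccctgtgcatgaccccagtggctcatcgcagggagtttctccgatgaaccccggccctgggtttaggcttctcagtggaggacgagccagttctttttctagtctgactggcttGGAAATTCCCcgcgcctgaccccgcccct

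Of the 10 members, 8 lay above the level filter (a log2 value of at least 3.32, which is 10 on the linear scale) in all 15 libraries, and 2 lay at the floor of the transform. Tnf (chr17:35199381-35202007), which codes for the cytokine TNF, had values of -2.09 to -2.08, and all 15 libraries were within 0.01 of its minimum. Il1b (chr2:129364570-129371139), which codes for interleukin-1β, had values of -1.19 to -1.16, and 11 of 15 libraries were within 0.01 of its minimum. For genes with a mean below 0 the median SD within groups was 0.00372, so values of this size carry almost no information on the groups. A change in either cytokine transcript was not detectable in such values, and the files do not give the number of reads behind them.

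Levels were compared between genes after subtracting log2 of the exon length in kilobases, which is approximate for values that were shrunk. The length counted every base that lies in any annotated exon of a gene, so the order depends on the annotation. It was longest for Nfkb1 (12061 bases, against 3072 for Rela). Before the length was taken off, the means of Nfkb1 (8.74) and Rela (8.65) were close. On this per-kilobase log2 scale the order was Nfkbia (8.36), Rela (7.03), Cd14 (5.22), Nfkb1 (5.15), Myd88 (5.08), Tlr7 (4.16), Tlr2 (4.01), Tlr4 (2.01), Il1b (-2.11) and Tnf (-2.80). Cd14, Nfkb1 and Myd88 were closer to each other than the SD of Cd14 within groups (0.17), and Tlr7 and Tlr2 were closer than that of Tlr7 (0.18). The inhibitor and subunit genes Nfkbia and Rela headed the order, and the receptors came after the co-receptor and the adaptor. Read pairs were counted without regard to strand, and 223 exonic bases of Myd88 overlap Acaa1a and 25 of Il1b overlap Il1bos, so reads from those stretches cannot be assigned to 1 gene.

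**Figure D1:**
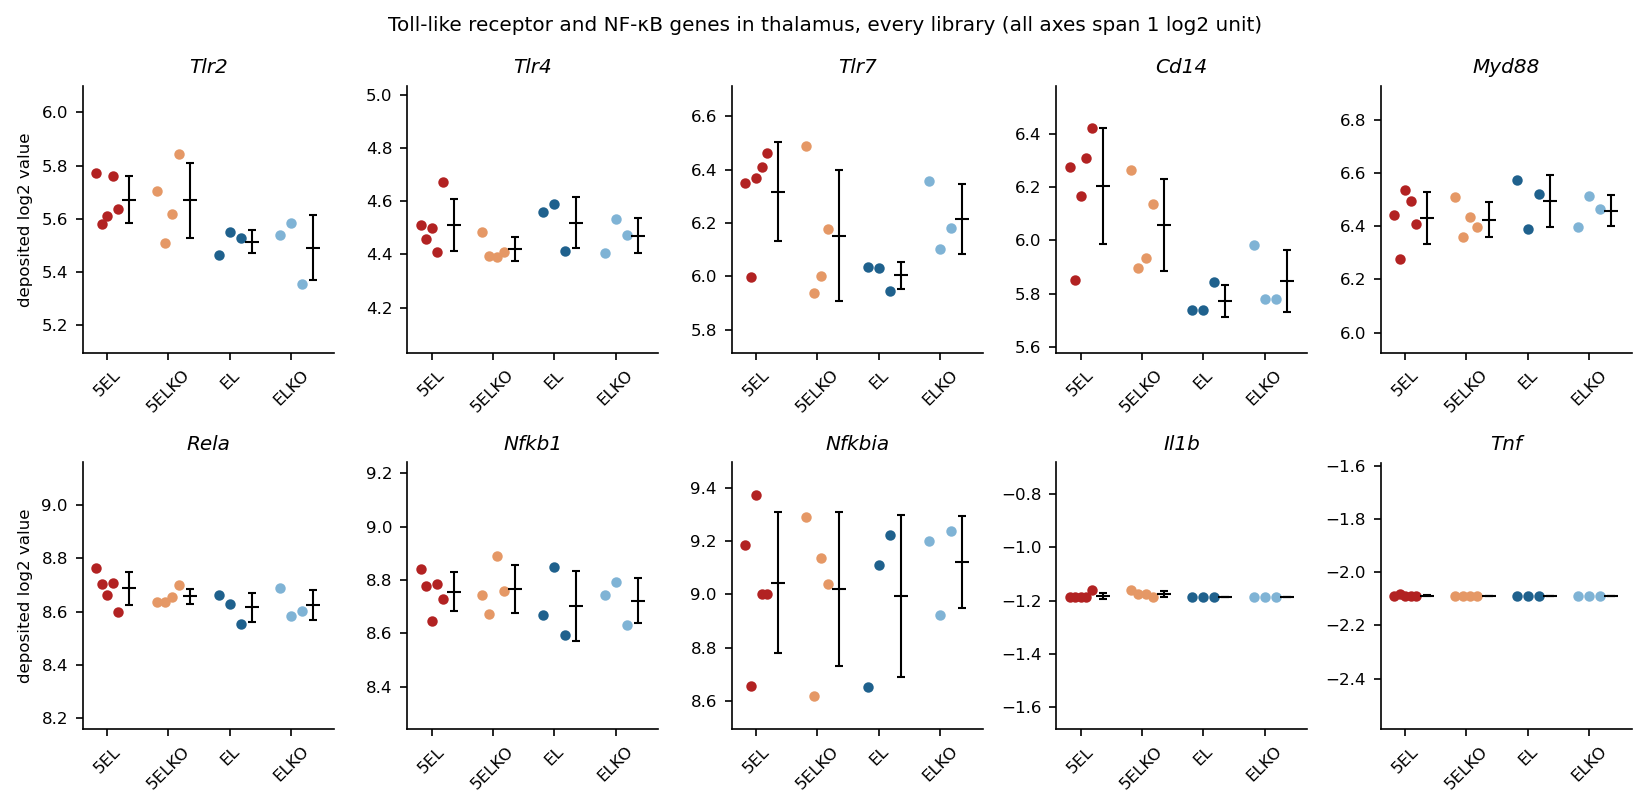
Deposited log2 value of each member (vertical axis, 1 log2 unit in every panel) in each library of 5EL, 5ELKO, EL and ELKO, with the group mean and SD as black bars. Cd14 was above 5.84, the highest EL library, in all 5 of the 5EL libraries, Nfkbia spread widely in every group, and Il1b and Tnf were flat.

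The receptors and Cd14 held the only members whose levels differed with the 5xFAD transgenes at a nominal p under 0.05. Cd14 on chromosome 18 was at 6.27, 5.85, 6.17, 6.31 and 6.42 in 5EL replicates 1 to 5 and at 5.74, 5.74 and 5.84 in the EL libraries. The groups did not overlap, but 5EL replicate 2 was only just above the highest EL library. The 5EL mean was 0.43 higher on the log2 scale (SE 0.11, 95% interval 0.19 to 0.67, or 1.35-fold), which had a nominal p of 0.0016 and an adjusted p of 0.63 by limma, and an exact two-sided permutation p of 0.0357. In bulk tissue, more cells that make a transcript and more transcript per cell cannot be told apart. Tlr7 (chrX:167304929-167330558) was at 6.35, 5.998, 6.37, 6.41 and 6.46 in 5EL and at 6.03, 6.03 and 5.95 in EL. Here 4 of 5 libraries of 5EL lay above all EL libraries and replicate 2 lay among them. The difference was 0.31 (SE 0.12, interval 0.06 to 0.57), with a nominal p of 0.0185 and an adjusted p of 0.63 by limma, and an exact permutation p of 0.0893. Tlr2 (chr3:83836272-83841767) was at 5.77, 5.58, 5.61, 5.76 and 5.64 in 5EL and at 5.46, 5.55 and 5.53 in EL, again without overlap but with a gap smaller than the spread of either group. Its difference of 0.16 (SE 0.08, interval 0.00 to 0.32) had a nominal p of 0.055 and an adjusted p of 0.63 by limma, and an exact permutation p of 0.0536. Tlr4 (chr4:66827584-66930284) was at 4.41 to 4.67 in 5EL and 4.41 to 4.59 in EL, and its difference of -0.01 had an interval of -0.13 to 0.11.

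Across all genes, limma called 0 of 15804 genes (0.0%) between 5EL and EL at an adjusted p under 0.05, and 1217 (7.7%) had a nominal p under 0.05. With the study's exploratory rule of a nominal p under 0.05 and a fold change over 1.2, 381 genes (2.41%) passed, and Cd14 and Tlr7 were the 2 members among them. The 5EL and EL libraries did not overlap in 2 of the 8 members, Cd14 and Tlr2, and in 3.26% of all genes tested. The smallest p that the exact test could give with 5 and 3 libraries was 0.0179. Without EL replicate 1, 31 genes were called between 5EL and EL, and no member was among them. Leaving out any 1 library kept the Cd14 difference between 0.38 and 0.52, and the Tlr7 difference between 0.28 and 0.39, whose nominal p passed 0.05 only without EL replicate 3 (0.0572).

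In mice without Lilrb4a the same comparison gave smaller differences for Cd14 and Tlr7. Cd14 was at 6.26, 5.90, 5.93 and 6.14 in 5ELKO and at 5.98, 5.78 and 5.78 in ELKO, and the groups overlapped because of ELKO replicate 1. The difference was 0.21 (SE 0.12, interval -0.04 to 0.46), with a nominal p of 0.0952 and an adjusted p of 0.999 by limma. Tlr7 was at 6.49, 5.94, 6.003 and 6.18 in 5ELKO and at 6.36, 6.10 and 6.18 in ELKO, with a difference of -0.06 (interval -0.33 to 0.20). Tlr2 was at 5.70, 5.51, 5.62 and 5.84 in 5ELKO and at 5.54, 5.58 and 5.35 in ELKO, so that 3 of the 4 libraries of 5ELKO lay above all of ELKO. Its difference of 0.18 (SE 0.08, interval 0.01 to 0.35) had a nominal p of 0.0406 and an adjusted p of 0.999 by limma, and an exact permutation p of 0.171. Without ELKO replicate 3, which held the lowest value, the Tlr2 difference was 0.11 (nominal p of 0.218). Over all 15804 genes, 0 (0.0%) were called at an adjusted p under 0.05, 375 (2.37%) had a nominal p under 0.05, of which Tlr2 was the only member, and 63 (0.399%) also passed the fold change of 1.2, with no member among them. No member had groups without overlap, against 3.4% of all genes, and the smallest exact p possible was 0.0286.

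Whether the effect of 5xFAD differed between mice with and without Lilrb4a was tested as an interaction. Only Tlr7 reached a nominal p under 0.05, with an interaction of -0.38 (SE 0.17, interval -0.74 to -0.01, nominal p of 0.0452, adjusted p of 1 by limma). The mean of Tlr7 was lowest in EL (6.004 ± 0.05 SD, n = 3), and ELKO (6.21 ± 0.13, n = 3), 5ELKO (6.15 ± 0.25, n = 4) and 5EL (6.32 ± 0.18, n = 5) overlapped each other. EL was apart from ELKO only, since 5ELKO replicate 2 (5.94) lay below all EL libraries. Among the EL libraries lay 5ELKO replicate 3 (6.003) and 5EL replicate 2 (5.998). The interaction of Cd14 was -0.22 (interval -0.57 to 0.12) and that of Tlr2 was 0.02 (interval -0.21 to 0.25). The nominal p of the Tlr7 interaction was under 0.05 in only 3 of the 15 fits that left out 1 library. It was under 0.05 in 5 of the 8 other alternatives, where the interaction was -0.42 to -0.34. The lowest adjusted p in any of these fits was 0.657 by limma. Of all genes, 0 (0.0%) were called at an adjusted p under 0.05, 432 (2.73%) had a nominal p under 0.05 and 190 (1.2%) also had an interaction over 1.2-fold, Tlr7 being the 1 member in both counts.

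Averaged over both Lilrb4a genotypes, a contrast chosen after the data were seen, 5xFAD mice had 0.32 more Cd14 (SE 0.08, interval 0.15 to 0.49, nominal p of 0.0013, adjusted p of 0.693 by limma) and 0.17 more Tlr2 (SE 0.05, interval 0.05 to 0.28, nominal p of 0.00795, adjusted p of 0.693). The averaged difference of Tlr7 was 0.13 (interval -0.06 to 0.31). Of all genes, 0 (0.0%) were called at an adjusted p under 0.05, 1038 (6.57%) had a nominal p under 0.05, with Cd14 and Tlr2 as the 2 members, and 116 (0.734%) also passed the fold change of 1.2, with Cd14 as the 1 member.

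**Figure D2:**
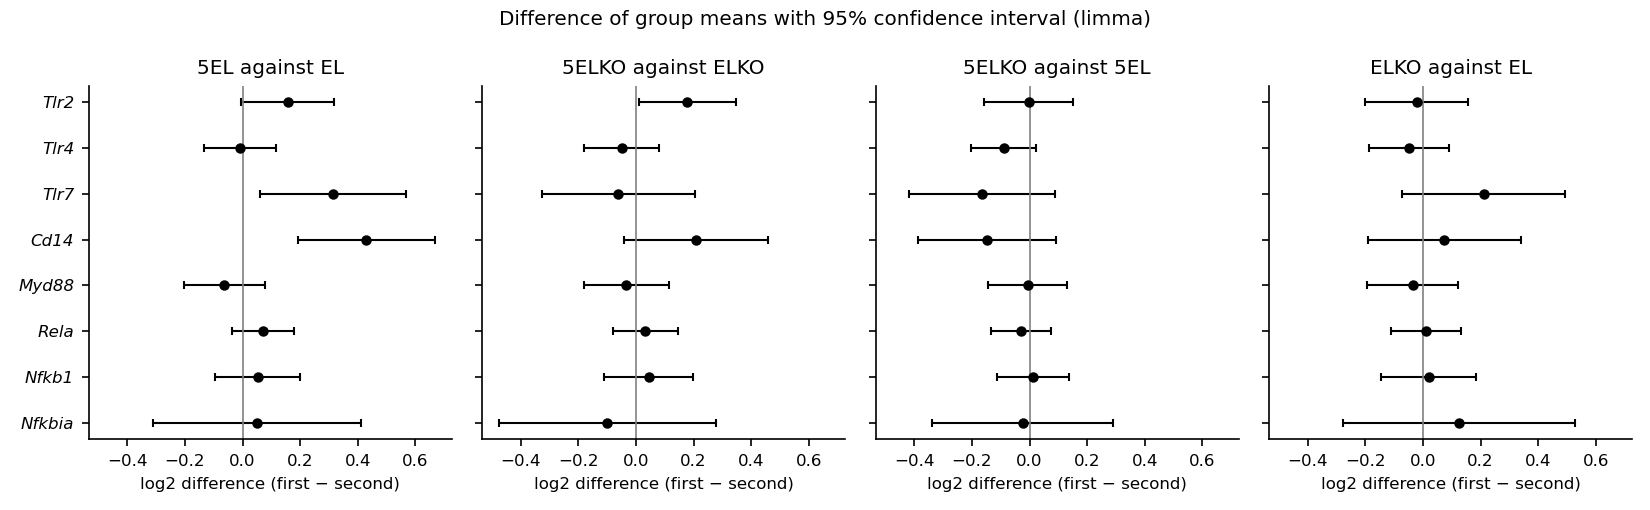
Difference of group means on the log2 scale (horizontal axis) with its 95% confidence interval for the 8 members above the filter, in 4 comparisons fitted with limma. The Cd14 and Tlr7 intervals for 5EL against EL and the Tlr2 interval for 5ELKO against ELKO lie above 0, and all intervals for 5ELKO against 5EL and for ELKO against EL include 0.

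Genes of microglia were also higher in 5xFAD mice, and beyond the covariate given here their part in the differences of these 3 members was not tested. Genes known from microglia at amyloid plaques, such as Cst7, Itgax and Clec7a, averaged 7.76 ± 0.22 (SD, n = 5) in 5EL, 7.72 ± 0.32 (n = 4) in 5ELKO, 7.30 ± 0.02 (n = 3) in EL and 7.39 ± 0.06 (n = 3) in ELKO, and 11 of the 12 had a nominal p under 0.05 in 5EL against EL and 5 of 12 in 5ELKO against ELKO, all of them higher. The general microglia list had 6 and 3 of 12, also all higher. With the mean of the general list as a covariate, the Cd14 difference between 5EL and EL was 0.23 (nominal p of 0.0356), that of Tlr7 was 0.11 (0.319) and that of Tlr2 was 0.05 (0.563). With the same covariate the differences between 5ELKO and ELKO were 0.05 for Cd14 (0.639), -0.22 for Tlr7 (0.0591) and 0.09 for Tlr2 (0.263). Those averaged over both genotypes were 0.14 for Cd14 (0.0957), -0.05 for Tlr7 (0.543) and 0.07 for Tlr2 (0.286). Defining genes of neutrophils and monocytes (8 of 9 in the files) and of T and B lymphocytes (7 of 7) were all under the level filter, with means of 0.86 to 0.94 and of 0.03 to 0.06. Other markers also differed at a nominal p under 0.05 by limma, and their part in the results was not tested. Of 14 hepatocyte genes 11 were higher in 5ELKO than in 5EL, where 2.49% of all genes reached that p. In 5ELKO against ELKO 10 of the 14 were higher (2.37%), and in the interaction 11 of the 14 (2.73%). Of 4 border macrophage genes 2 were lower in 5ELKO than in 5EL. Of 4 erythrocyte genes above the filter 3 were lower in ELKO than in EL (2.35%). Between 5EL and EL, where 7.7% of all genes reached that p, 6 of 10 thalamus genes were lower (list median -0.27). So were 1 of 6 neuron genes, Snap25 (-0.20), and 2 of 4 erythrocyte genes above the filter, Hba-a1 and Hbb-bs (list median -0.69). Of 8 astrocyte genes 2 were higher, Gfap (1.35) and Serpina3n (0.99).

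Among the 9 libraries of 5xFAD mice, 5EL replicate 2 and 5ELKO replicates 2 and 3 were lowest in the plaque genes, at 7.43, 7.37 and 7.53 against 7.64 to 8.01 in the other 6, and the same 3 libraries were lowest in Tlr7 and Cd14. Over the 9 libraries, Tlr2 rose with the mean of the plaque genes with r = 0.87 (exact permutation p = 0.00317, adjusted over the 8 members tested 0.0231) and rho = 0.88 (exact p = 0.00307, adjusted 0.0246). For Cd14 r was 0.85 (exact p = 0.00578, adjusted 0.0231), but rho was 0.60 (exact p = 0.0968, adjusted 0.258). For Tlr7 r was 0.82 (exact p = 0.0135, adjusted 0.0361) and rho was 0.72 (exact p = 0.0369, adjusted 0.147). Without the 2 libraries farthest from the median of the plaque genes, 5EL replicate 2 and 5ELKO replicate 2, r was 0.75 for Tlr2, 0.67 for Cd14 and 0.58 for Tlr7. For the other 5 members r was 0.16 (Nfkb1) to 0.60 (Nfkbia), with an adjusted exact p of 0.196 or more. With the mean of each genotype subtracted, and libraries permuted within genotypes only, an alternative chosen after the data were seen, r was 0.87 for Tlr2, 0.86 for Tlr7 and 0.89 for Cd14 (adjusted exact p = 0.025 for each). Both values of each point come from the same library.

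**Figure D3:**
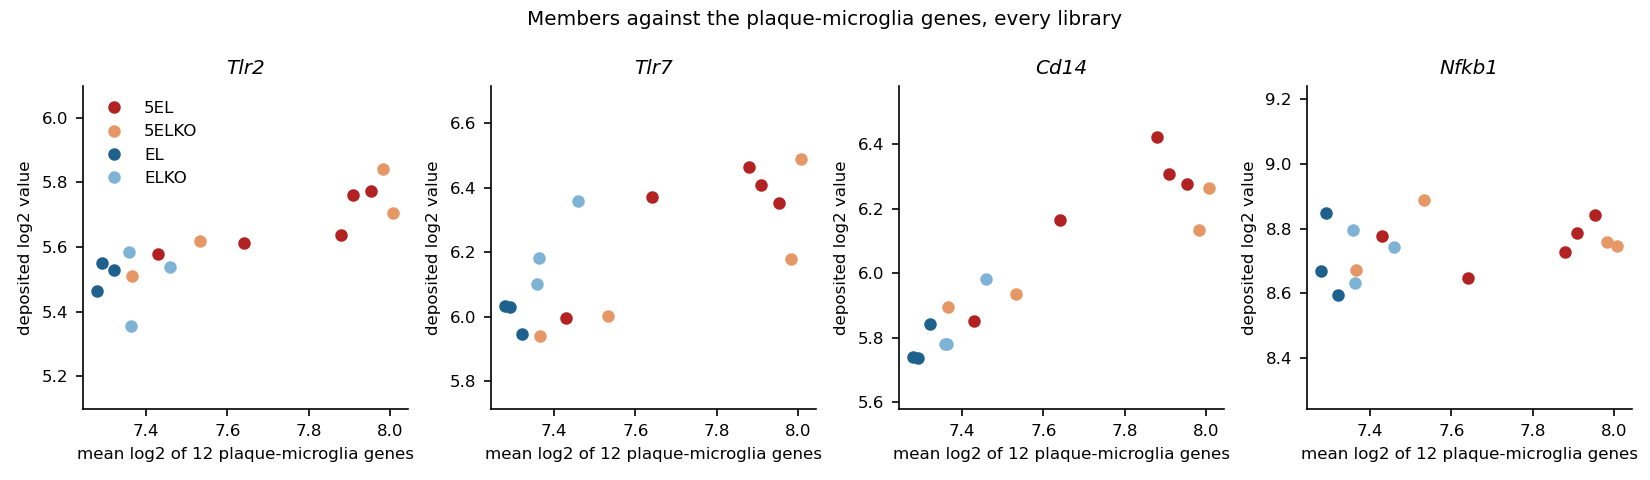
Deposited log2 value of Tlr2, Tlr7, Cd14 and, for contrast, Nfkb1 (vertical axes) against the mean log2 value of 12 genes of plaque microglia (horizontal axes), 1 point per library. The 9 libraries of 5xFAD mice spread from 7.37 to 8.01 along the horizontal axis, and Tlr2, Tlr7 and Cd14 were higher towards the right while Nfkb1 was not.

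The comparison of the study, deletion of Lilrb4a in 5xFAD mice, separated none of the members. Of the 15743 genes tested in the 9 libraries, 3 (0.0191%; Alb, Bhmt and Serpina3k, genes of liver) were called at an adjusted p under 0.05, 392 (2.49%) had a nominal p under 0.05 and 40 (0.254%) also passed the fold change of 1.2, with no member in any of these counts. Leaving out 1 library gave 0 to 4 called genes and no called member. The largest difference among the members was that of Tlr7, -0.17 in 5ELKO against 5EL (SE 0.12, interval -0.42 to 0.09, nominal p of 0.182, adjusted p of 0.999 by limma), followed by Cd14 at -0.15 (SE 0.11, interval -0.39 to 0.09, nominal p of 0.207). Both depended on single libraries, since leaving out 1 library gave Tlr7 differences of -0.28 (without 5ELKO replicate 1, nominal p of 0.0199, adjusted p of 0.999 by limma) to -0.09 (without 5ELKO replicate 2, nominal p of 0.454). Without 5EL replicate 2 the differences were -0.25 for Tlr7 (nominal p of 0.0362) and -0.24 for Cd14 (nominal p of 0.0211), each with an adjusted p of 1 by limma, and without 5EL replicate 5 that of Cd14 was -0.09. The spread within 5ELKO was as wide as in all libraries together, since 5ELKO replicate 1 had the highest Tlr7 of the 15 (6.49) and 5ELKO replicate 2 the lowest (5.94). Tlr4 was at 4.49, 4.39, 4.39 and 4.41 in 5ELKO and between 4.41 and 4.67 in the 5 libraries of 5EL. In 3 of 4 libraries of 5ELKO Tlr4 was below all of 5EL, but 5ELKO replicate 4 (4.4099) was almost level with 5EL replicate 4 (4.4102). The difference of the Tlr4 means was -0.09 (SE 0.05, interval -0.20 to 0.02), with an exact permutation p of 0.0952. Tlr2 differed by 0.00 (interval -0.16 to 0.15). No member had groups without overlap, against 1.06% of all genes, and the exact test could have reached 0.0079. As 5EL served both here and against EL, the 2 sets of differences are not independent.

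Without 5xFAD, deletion of Lilrb4a gave no member with a nominal p under 0.05 in the main limma fit. Tlr7 was 0.21 higher in ELKO than in EL (SE 0.13, interval -0.07 to 0.49, nominal p of 0.134, adjusted p of 0.998 by limma), and all 3 ELKO libraries were above all 3 EL libraries. It was the 1 member without overlap, where 4.59% of all genes had none, and with 3 against 3 the exact permutation test cannot go below the 0.1 it gave. Of 15804 genes, 0 (0.0%) were called at an adjusted p under 0.05, 372 (2.35%) had a nominal p under 0.05 and 85 (0.538%) also passed the fold change of 1.2. With the replicate block the nominal p of Tlr7 was 0.07 by limma. In 0 of the 15 fits that left out 1 library was it under 0.05. Of the 9 other alternatives, 1 gave Tlr7 a nominal p under 0.05 (0.042).

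The adaptor and the NF-κB subunits varied little. Myd88 (chr9:119335934-119341411) had group means of 6.43 ± 0.10 in 5EL, 6.42 ± 0.06 in 5ELKO, 6.49 ± 0.10 in EL and 6.46 ± 0.06 in ELKO (SD), and the groups overlapped in all 4 comparisons. Rela (chr19:5637483-5648130), the p65 subunit, had means of 8.69 ± 0.06, 8.66 ± 0.03, 8.62 ± 0.06 and 8.63 ± 0.06 in the same order. Its SD within groups (0.05) was the smallest among the 8 members above the filter and below the median of 0.10 for the 1230 genes at that level. Between 5ELKO and 5EL, Rela was at 8.64, 8.64, 8.66 and 8.70 against 8.77, 8.70, 8.66, 8.71 and 8.60, a difference of -0.03 (interval -0.13 to 0.07, nominal p of 0.538, adjusted p of 0.999 by limma). Nfkb1 (chr3:135584655-135691547), the precursor of p50, had means of 8.76 ± 0.07, 8.77 ± 0.09, 8.70 ± 0.13 and 8.72 ± 0.08, and its 4 differences ran from 0.01 to 0.05 with adjusted p from 0.794 to 0.999 by limma.

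Nfkbia (chr12:55489410-55492647), the inhibitor and feedback gene, varied more than any other member, and it varied within groups. It was at 9.19, 8.66, 9.37, 9.002 and 9.003 in 5EL, at 9.29, 8.62, 9.14 and 9.04 in 5ELKO, at 8.65, 9.11 and 9.22 in EL and at 9.20, 8.92 and 9.24 in ELKO. A low library stood in each of the first 3 groups, and all groups overlapped. Its SD within groups was 0.27 against a median of 0.10 for the 1285 genes at that level. Its differences were 0.05 (interval -0.31 to 0.41) for 5EL against EL, -0.10 (-0.48 to 0.28) for 5ELKO against ELKO, -0.02 (-0.34 to 0.29) for 5ELKO against 5EL and 0.13 (-0.28 to 0.53) for ELKO against EL. The genes whose levels were most like Nfkbia over the 15 libraries, of 15804, were Sgk1 (r = 0.95), Cebpd (0.90) and Arrdc2 (0.90), and after subtracting group means Sgk1 (0.97) and Cebpd (0.93) again came first. Sgk1, a kinase gene, and Cebpd, a transcription factor gene, are both known to respond to glucocorticoids. Sgk1 was at 10.8, 11.1 and 11.1 in 5EL replicate 2, EL replicate 1 and 5ELKO replicate 2, the 3 libraries lowest in Nfkbia, and at 11.5 or more in the other 12.

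**Figure D4:**
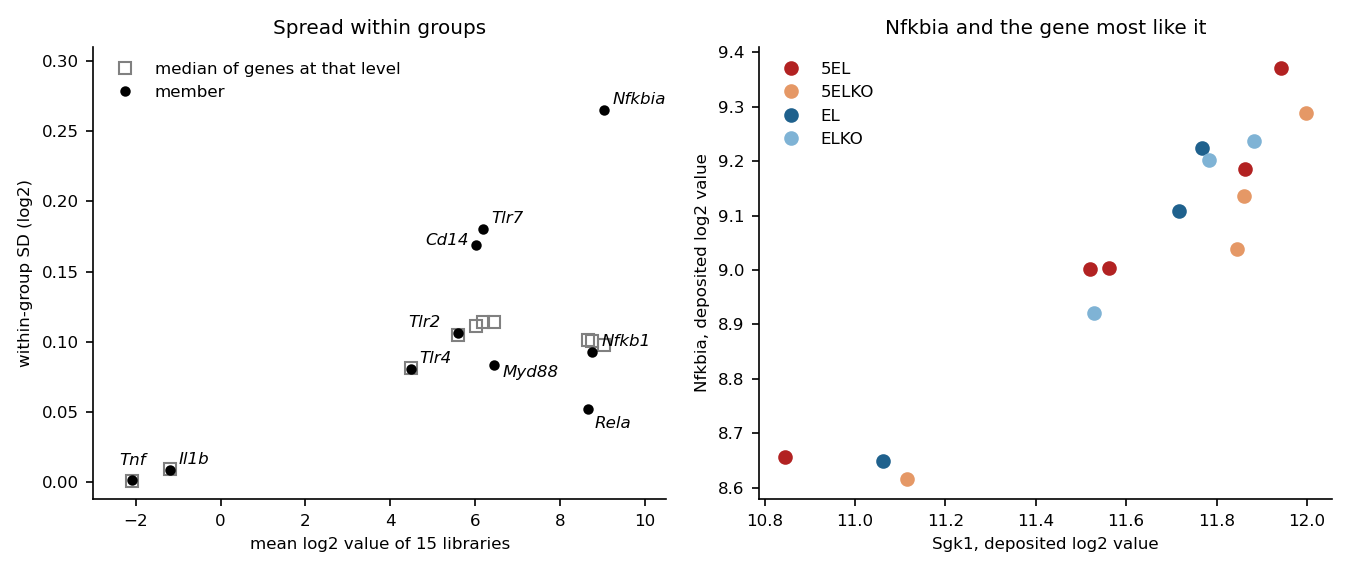
Left, SD within groups (vertical axis) against mean log2 value (horizontal axis) for each member and for the median gene at that level, with Nfkbia at 0.27 against 0.10. Right, Nfkbia against Sgk1 in the 15 libraries, both as deposited log2 values, with libraries of all 4 groups along 1 line.

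The same search gave other neighbours for the receptors. Cd14 was most like Cst7 (r = 0.94), Ctsb (0.94) and Itgax (0.94), and after subtracting group means most like Itgax (0.92), Tlr7 (0.90) and Cst7 (0.90). Tlr2 was most like Laptm5 (0.89), Clec7a (0.88) and Shmt1 (0.88), and after subtracting group means Ifnar1 (0.88), Shmt1 (0.86) and Tor1aip1 (0.85) came first instead. Of these, Cst7, Itgax, Laptm5 and Clec7a are genes of microglia and other phagocytes. Tlr7 was most like Sap30 (0.87), Bcl2l1 (0.84) and Pcyox1 (0.84), and within groups like Cd14 (0.90), Myo1f (0.90) and Cst7 (0.89). For the remaining members the best matches were Mpg for Tlr4 (0.72), Dhrs13 for Myd88 (0.83), Ssbp2 for Rela (0.83) and Fbrsl1 for Nfkb1 (0.89). Among the members themselves Tlr7 and Cd14 had the highest correlation within groups (0.90), that of Rela and Nfkb1 was 0.41, and Nfkbia had 0.58 with Tlr7 and -0.09 with Rela. These are descriptions over 15 libraries of 4 groups, picked as the highest of many.

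The cytokine genes at the floor did not separate the groups. Il1b was highest in 5EL replicate 5 (-1.162) and in 5ELKO replicates 1 (-1.162), 2 (-1.175) and 3 (-1.176), and lay between -1.188 and -1.186 in the other 11 libraries. These 4 came from 5xFAD mice, but the exact permutation p was 0.857 for 5EL against EL, 0.114 for 5ELKO against ELKO and 0.429 for 5ELKO against 5EL. Tnf was at -2.08 in 5EL replicate 2 and at -2.09 in the other 14 libraries.

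Other genes of the pathway gave no call at an adjusted p under 0.05 in any of the comparisons. Those with a nominal p under 0.05 between 2 groups or in the interaction are named here after their values were seen. Between 5EL and EL, 0 of 4 other Toll-like receptor genes above the filter, 2 of 8 co-receptor and adaptor genes (Ly86, 0.31 and Unc93b1, 0.11), 1 of 15 kinase and ubiquitin ligase genes (Traf3, 0.43), 0 of 12 other NF-κB subunit and inhibitor genes and 2 of 8 genes of cytokine receptors and processing (Tnfrsf1a, 0.17 and Pycard, 0.18) were higher in 5EL at that nominal p, against 7.7% of all genes in either direction. Unc93b1 carries TLR7 to the endosome and Pycard is the adaptor of the inflammasome. Of 13 other NF-κB target and cytokine genes above the filter, Csf1 (0.21) and Cxcl16 (0.13) were higher and Il18 (-0.28) and Cd44 (-0.40) lower. The medians of the 6 lists were -0.02 to 0.11, and that of the 8 members was 0.06, where the median of all genes was 0.00. A further 11 genes of the target list, among them Il6, Ccl2, Cxcl10 and Il1a, were under the filter, as were Tlr1, Tlr5, Tlr6 and Tlr8.

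Between 5ELKO and ELKO, Unc93b1 (0.18), Cd180 (0.26), Csf1 (0.16) and Casp1 (0.11), the protease that matures interleukin-1β, were the pathway genes with a nominal p under 0.05, 4 of 60 tested against 2.37% of all genes, and all were higher in 5ELKO. Between 5ELKO and 5EL no gene of the 6 lists reached it, of 60 tested, and the list medians were -0.05 to 0.02 against 0.00 for all genes. The 8 members had a median of -0.03 there, with 7 of 8 below 0. Between ELKO and EL, Ikbkb (-0.14), Il18 (-0.20) and Cd44 (-0.46) were lower at a nominal p under 0.05, 3 of 60 against 2.35% of all genes. In the interaction, Ikbkb (0.21), Il18 (0.26) and Cd44 (0.40) reached it, 3 of 60 against 2.73% of all genes. In the averaged contrast 6.57% of all genes reached it. There, 3 of 8 co-receptor and adaptor genes and 4 of 8 genes of cytokine receptors and processing were higher. So was 1 of 12 other subunit and inhibitor genes. Of 15 kinase and ligase genes 1 was higher and 1 lower, and of 13 target genes 1 was higher and 3 lower.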

How the data were processed

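Polyadenylated RNA of thalamus was sequenced as 15 bulk libraries. The authors removed adapters and low-quality bases with Trimmomatic 0.39, mapped the read pairs to GRCm38 (HISAT2 2.2.1) and counted them over exons by gene name and without strand (featureCounts 2.0.3). They deposited log2 values for 29659 genes per library, and the transform that made them is not given in the sources used here. Low genes converge on a floor of their own. The study lists read totals for 5 libraries of 5EL and 5 of 5ELKO, while the series holds 4 of 5ELKO. The RNA integrity values it lists reached lower in 5ELKO than in 5EL, and their part in the results was not tested. The files hold no counts, so no counting interval could be given for a value.

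The deposited log2 values were tested with limma 3.58.1 in R 4.3.3 (linear model, empirical Bayes with a trend on the mean, two-sided, Benjamini-Hochberg over all genes tested). Genes with a value of at least 3.32 in 3 of 15 libraries, or in 4 of 9 for 5ELKO against 5EL, were kept. That comparison used its 9 libraries, and the others used all 15 with 1 estimate of spread. A gene was called at an adjusted p under 0.05. Single members were also tested with an exact two-sided permutation test. Gene positions came from GENCODE on GRCm38. The script was tested on simulated data. All 10 members are named, as are the 3 genes most correlated with each member. By the rule, genes of other lists were to be named only where called. Those with a nominal p, and the examples of plaque genes and of genes under the filter, were picked with the values known. The members and lists were chosen with earlier results of these data known.

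Deviations from the group means correlated by 0.45, 0.33 and 0.74 between EL and ELKO libraries of the same replicate number, over the set minimum of 0.1 in each pair. Between 5EL and 5ELKO they correlated by -0.24 to 0.14, and between the other pairs of groups by -0.33 to 0.31. No label says what a replicate number stands for, and the main fits and the permutation tests took all libraries as unpaired. A fit with the replicate block was an alternative, beside no filter, a stricter filter (a linear value of 32), a prior without a trend, a robust prior, other libraries in the fit, a recentring, a microglia covariate and leaving out libraries.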

Additional observations from a re-analysis of the deposited data

Results flagged for a closer look

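Among the 20 combinations of a member with 5EL or 5ELKO, 3 held a library that stood apart by Dixon's ratio, the gap to the nearest library divided by the whole range, where chance gives about 1 in 20. Tlr7 in 5EL replicate 2 (5.998 against 6.35 to 6.46 in the other 4) had a ratio of 0.757. That library was also the lowest of 5EL in the plaque and general microglia genes, with means of 7.43 and 8.86, and without it the Tlr7 difference between 5EL and EL was 0.39. Il1b in 5EL replicate 5 had a ratio of 0.957 and Tnf in 5EL replicate 2 one of 0.975, but both genes lie at the floor and their whole ranges over 15 libraries were 0.0261 and 0.00712.

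The effect of 5xFAD on Tlr7 differed between mice with and without Lilrb4a by -0.38 (0.31 with and -0.06 without), with a nominal p of 0.0452 and an adjusted p of 1 by limma, 1 of the 8 members tested. ELKO replicate 1, the library with mouse Apoe at 10.9, had the highest Tlr7 of its group (6.36), and without it the interaction was -0.30 with a nominal p of 0.12.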

How the results depend on the processing

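No member was called at an adjusted p under 0.05 in any comparison under any alternative that was run. The count of all genes called was 1 between 5EL and EL with no filter on low values, against 0. Between 5ELKO and 5EL it was 1 with no filter, 1 with the replicate block and 0 with all 15 libraries in the fit, against 3. Leaving out 1 library gave 0 to 31 called genes for 5EL against EL, 0 to 2 for 5ELKO against ELKO, 0 to 4 for 5ELKO against 5EL and 0 to 1 for ELKO against EL, and the highest counts of all but 5ELKO against 5EL came without EL replicate 1. The causes were not tested. The replicate block changed no member's call. With it the Cd14 difference between 5EL and EL was 0.34 (nominal p of 0.00251 by limma) and that of Tlr2 between 5ELKO and ELKO was 0.14 (0.0971), and with 5EL replicate 1 and ELKO replicate 2 left out together they were 0.41 (0.00511) and 0.22 (0.0255). Of 1074 member differences refitted, 59 took the other sign, none of them from a difference larger than 0.15 on the log2 scale. Il1b and Tnf passed no filter and have no alternatives, and without counts in the files what depth allows for them could not be computed.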
